A study of Mus musculus with 4 samples.

Results

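The receptors of the TIGIT axis, encoded by Tigit, Cd226, Cd96 and Pvrig, were followed through the CD8+ T cells of bone marrow (BM) after stem cell transplantation (SCT). They are 4 of the 17561 genes of the count table, found by matching symbols to Ensembl identifiers, and they were counted as unique molecular identifiers (UMIs, which count captured transcripts) in 11754 cells. On the minus strand of chromosome 16 lie Tigit (ENSMUSG00000071552; start 43648867, end 43664146) and Cd96 (ENSMUSG00000022657; start 46035657, end 46120251). Pvrig (ENSMUSG00000109713) occupies 138341961 to 138343557 of chromosome 5 and Cd226 (ENSMUSG00000034028) occupies 89176967 to 89272229 of chromosome 18, in each case on the plus strand (GRCm38, GENCODE M21). In that annotation the 4 genes did not overlap another gene.

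TIGIT is an inhibitory receptor of T cells and NK cells that competes with CD226 (DNAM-1), an activating receptor, for the ligands CD155 (PVR) and nectin-2 on tumor and myeloid cells. CD96 binds CD155 and has been assigned inhibitory as well as activating roles, and PVRIG is an inhibitory receptor for nectin-2. TIGIT and PVRIG are antibody targets in cancer, myeloma included.

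Cells came from female recipients on a C57Bl/6 background, wild type or transgenic for a CRBN (cereblon) that lenalidomide can engage. All recipients had received Vk*MYC myeloma cells (line Vk12653) and were then transplanted with BM and T cells of genetically matched donors. The 4 groups were given a murine IgG2a isotype control (cIg) with vehicle, an Fc-live αTIGIT antibody with vehicle, cIg with lenalidomide, or both agents. Antibody began on the day of transplantation and lenalidomide on day 14, and BM of 5 mice per group was pooled on day 28, sorted for CD8+ T cells and captured as 1 library of 5′ single-cell RNA and T cell receptor (TCR) sequencing. The libraries are numbered 1 to 4 in the deposited cell table without a treatment, so they are given by number and no treatments are compared.

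The libraries held 4237, 2003, 1725 and 3789 cells, 15556967 to 38440687 UMIs in all and a median of 7115 to 7669 UMIs per cell. The deposited annotation puts each cell in 1 of 8 clusters, namely naive (Tn), central memory (Tcm), transitory Teff, GzmB+ Teff, TIGIT+ Teff, TIM-3+ Tex and GzmA+ Tex (effector and exhausted cells), and cycling cells. Cd3e, which the authors' cell filter also used, was detected in at least 98.4% of the cells of every cluster, and Cd4 and Foxp3 did not exceed 1.99 CPM (UMIs of a gene per 1000000 UMIs) in any cluster. A list of these 2 with Il2ra and Ikzf2 summed to 31.6 CPM in Tn, 209 CPM in Tcm and 240 CPM in TIGIT+ Teff, and Ikzf2 was past 2-fold higher in the Teff and Tex clusters than in Tn. Tcm stood apart in its CD8 and NK cell genes. Cd8b1, a chain of CD8, was found in 52.0% of Tcm cells at 217 CPM, against 1165 CPM in Tn, and Cd8a in 79.8% of them. A list of 5 NK cell markers summed to 775 CPM in Tcm (739 to 823 over libraries) and to 167 to 495 CPM in the other clusters, with Klrb1c (NK1.1) at 242 CPM in 69.4% of Tcm cells and Ncr1 at 4.92 CPM. Of the 3 NK markers tested, Klrb1c and Klre1 were also past 2-fold higher in the Teff and Tex clusters than in Tn. The part of NK cell transcripts in the receptor levels of Tcm was not tested. Because the clusters were made from these same expression values and each treatment was 1 library, differences are described without a test, with exact Poisson intervals for CPM and Clopper-Pearson intervals for shares (both 95%, counting error only). Of the cells, 112 (0.953%) carried a barcode also found in another library. Of the 56 barcodes shared in this way, 28 had a TCR in every library and could be compared, and 0 had the same clonotype.

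Tigit separated the clusters more widely than the other members. Its level in Tn was 16.4, 17.6, 11.2 and 16.2 CPM across libraries 1 to 4, and in Tcm 42.1, 24.3, 41.5 and 41.7 CPM. TIM-3+ Tex had 584, 516, 550.0 and 574 CPM, above every other cluster in each of the 4 libraries. The remaining Teff and Tex clusters and the cycling cells lay between, and their library ranges overlapped: 242 to 431 CPM in transitory Teff, 243 to 388 CPM in TIGIT+ Teff, 166 to 327 CPM in GzmA+ Tex and 179 to 312 CPM in cycling cells. GzmB+ Teff stood lower at 99.4 to 176 CPM. TIGIT+ Teff, although named for this gene, had a lower Tigit level than TIM-3+ Tex in all 4 libraries, with a log2 ratio of -0.86 (-0.93 to -0.79) and a range over libraries of -1.18 to -0.41.

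Over the 5 Teff and Tex clusters together, Tigit stood at 354 CPM against 15.3 CPM in Tn. The log2 ratio was 4.53 (4.31 to 4.76), and the 4 libraries gave 4.16 to 4.64. Without cells that held 2 or more UMIs of macrophage or B and plasma cell genes it was 5.20. At least 1 Tigit UMI was found in 8.94% of Tn cells, 21.1% of Tcm cells and 96.2% of TIM-3+ Tex cells. Cells of these clusters carried a median of 7834, 6958 and 8434 UMIs. With every cell thinned to 2500 UMIs the shares were 3.35%, 8.35% and 74.0%. No cell type that should lack these receptors was among the clusters, so the share that free RNA alone would give was not measured.

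**Figure D1:**
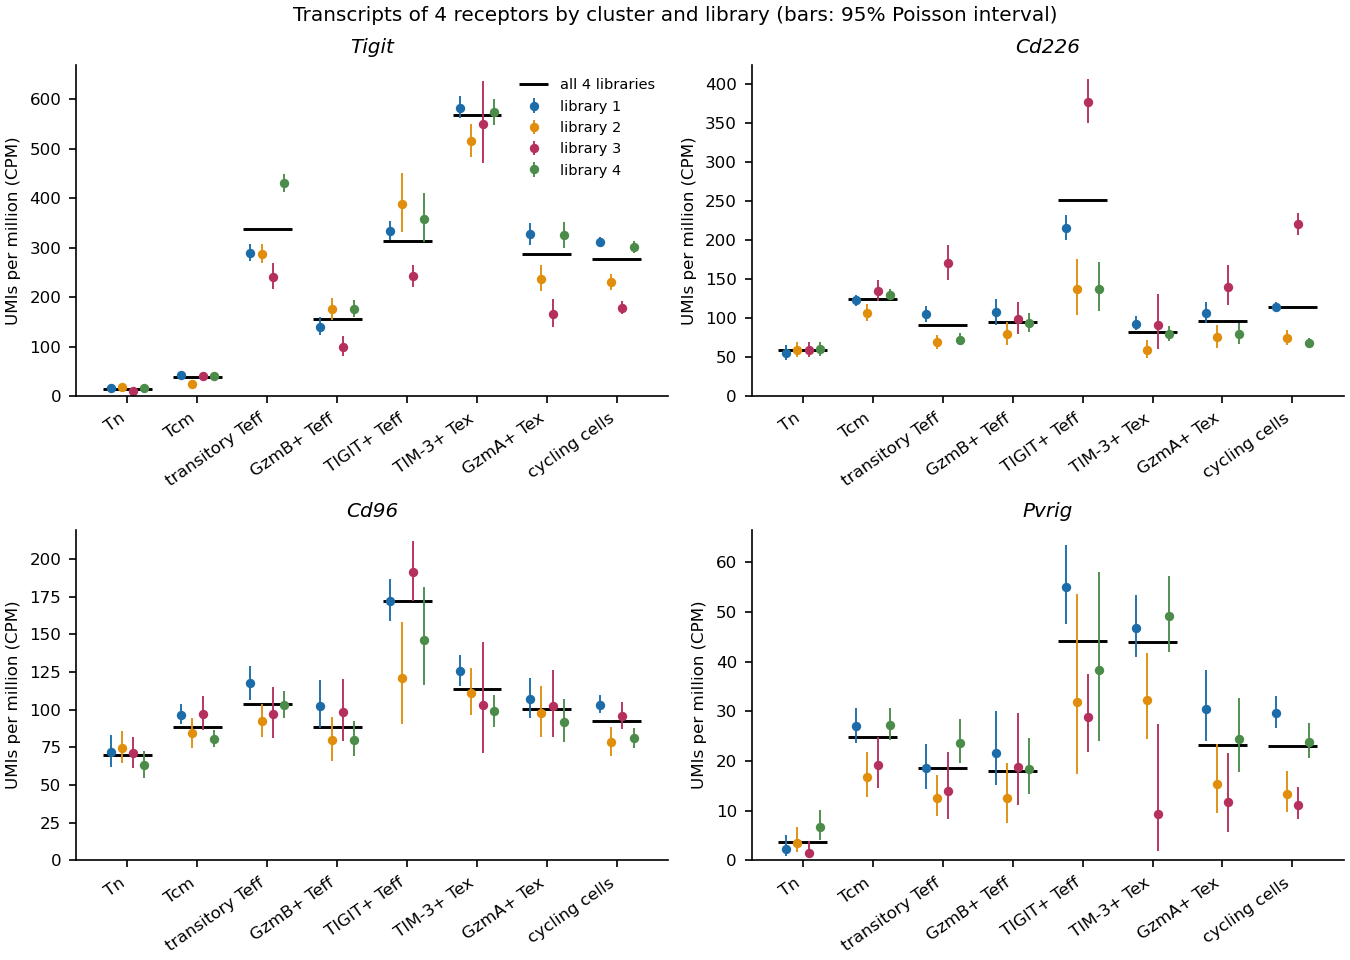
Level of each receptor transcript (CPM, linear axes) in the 8 clusters, with 1 point per library, its 95% Poisson interval and a horizontal line for all cells of the cluster. Tigit spans 15.3 CPM in Tn to 567 CPM in TIM-3+ Tex, while Cd226 is highest in TIGIT+ Teff at 251 CPM, where library 3 (377 CPM) stands above the others.

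Cd226, the activating partner, followed another order. Across libraries 1 to 4, Tn had 55.5, 58.7, 59.6 and 59.9 CPM and Tcm had 122, 107, 135 and 130 CPM. The level in TIGIT+ Teff was 215, 137, 377 and 138 CPM, the highest cluster in each library. Its log2 ratio to Tcm was 0.36 (-0.06 to 0.76) in library 2 and 0.085 (-0.26 to 0.41) in library 4, intervals that span 0. TIM-3+ Tex, where Tigit peaked, had 92.9, 58.9, 90.6 and 79.7 CPM of Cd226, and in library 2 its interval (48.3 to 71.3 CPM) held the Tn level. Among the other clusters of effector and exhausted cells, transitory Teff had 91.0 CPM, GzmB+ Teff 94.3 CPM and GzmA+ Tex 96.8 CPM over all libraries, and their library ranges overlapped.

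For the 5 Teff and Tex clusters against Tn, the log2 ratio of Cd226 was 0.97 (0.85 to 1.09), with 0.32 to 1.89 over the libraries. Without TIGIT+ Teff it was 0.62. Tcm had a log2 ratio to Tn of 1.09 (0.97 to 1.22), with 0.86 to 1.18 over the libraries. At 125 CPM Tcm was above 4 of the 5 Teff and Tex clusters over all libraries and within libraries 1, 2 and 4, but above 2 of the 5 in library 3, where transitory Teff (170 CPM) and GzmA+ Tex (140.1 CPM) were higher too. Nuclear retained transcripts (Malat1, Neat1 and Kcnq1ot1), summed over 3 genes, stood at 6808 CPM in TIGIT+ Teff (5097 to 8278 over libraries) and at 2373 to 3085 CPM in the 7 other clusters. The median share of mitochondrial UMIs per cell was also highest in TIGIT+ Teff, at 2.87% against 1.62% to 2.22% elsewhere. The part of either in the Cd226 and Cd96 levels of TIGIT+ Teff was not tested.

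The balance of both transcripts shifted with these levels. Of all Tigit and Cd226 UMIs together, Tigit made up 20.7% (18.0 to 23.7) in Tn and 24.0% in Tcm. The share was 78.8% among transitory Teff and 87.3% (86.5 to 88.1) among TIM-3+ Tex. TIGIT+ Teff lay between at 55.5%, ranging from 39.2% to 73.9% over the libraries, and GzmB+ Teff at 62.3%. From Tn to the 5 Teff and Tex clusters the log2 ratio of Tigit to Cd226 UMIs was higher by 3.56 (3.31 to 3.81), a difference in which gene length and capture of each transcript cancel. The libraries gave 3.34, 3.84, 2.43 and 4.19, with library 3 lowest, and 3 of the 4 lay outside that counting interval. TIM-3+ Tex had a narrow range over libraries, 85.9% to 89.7%, whereas cycling cells ran from 44.8% in library 3 to 81.5%.

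Cd96, the CD155 receptor with mixed roles, had the narrowest span of the 4 genes between clusters. It stood at 71.9, 74.7, 71.1 and 63.1 CPM in Tn, and at 173, 121, 191 and 146 CPM in TIGIT+ Teff, the highest cluster over all libraries. The 6 others had 88.3 to 114 CPM, and neighbours in that order overlapped in their library ranges. Against Tn, the 5 Teff and Tex clusters together gave a log2 ratio of 0.70 (0.59 to 0.82). Detection ranged from 40.4% of Tn cells to 68.3% of TIGIT+ Teff cells.

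Pvrig, the inhibitory receptor for nectin-2, was sparse in all clusters. Tn held 6, 9, 4 and 21 UMIs in libraries 1 to 4, or 1.49 to 6.66 CPM. Tcm had 27.0, 16.9, 19.3 and 27.3 CPM, above transitory Teff in each library (18.5, 12.5, 14.0 and 23.7 CPM). TIM-3+ Tex had 46.9, 32.3, 9.37 and 49.2 CPM, where the value of library 3 rests on 3 UMIs in 31 cells. TIGIT+ Teff had 55.1, 31.9, 28.9 and 38.3 CPM, with a log2 ratio to TIM-3+ Tex of 0.011 (-0.21 to 0.23). Compared with Tn, the 5 Teff and Tex clusters had a log2 ratio of 2.99 (2.54 to 3.48), with 2.17 to 3.98 over libraries.

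GzmA+ Tex carried transcripts of macrophages, and its receptor values are read beside them. All 8 genes of a macrophage list were detected there and summed to 1109 CPM (718 to 1392 over libraries), against 9.45 to 72.9 CPM in the other clusters. Lyz2 (lysozyme) alone stood at 291 CPM and was found in 47.1% of the cells. GzmA+ Tex had 287 CPM of Tigit, 96.8 CPM of Cd226 and 23.2 CPM of Pvrig, within the range of the other Teff and Tex clusters for each gene. In the 5 Teff and Tex clusters together, 6 of the 8 macrophage genes reached 20 CPM, and 2 stayed below this minimum. None of the 6 exceeded 4.59 CPM in Tn, so the minimum alone put each past 2-fold (CPM plus 5). Their median log2 ratio to Tn was 2.56. Over all 5842 genes tested in this way, 6.81% were past 2-fold higher. Lyz2 stood at 47.5 CPM in these clusters against 0.37 CPM in Tn, so that the pooled ratios carry macrophage transcripts too.

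Library 3 stood apart in Cd226. It had the highest Cd226 level of the 4 libraries in 5 of 8 clusters and the lowest Tigit level in 6 of 8. In transitory Teff its Cd226 level of 170 CPM (149 to 194) was 1.62 times that of the next library. In this cluster 1.28% of all genes tested were at least 1.5 times higher there than in any other library. In TIGIT+ Teff the factor was 1.75, with 2.07% of genes past 1.5, and in cycling cells it was 1.92 (220 CPM against 115 CPM in library 1), with 3.78% of genes past 1.5. Tigit, Cd96 and Pvrig passed this threshold in library 3 in 0 of those 3 clusters. Nuclear retained transcripts were highest in library 3 in the same 3 clusters, at 3914, 8278 and 3873 CPM against 3430, 6475 and 2662 CPM in library 1, which had the next highest sums. They were highest in library 3 in GzmA+ Tex as well, at 3906 CPM against 3339 CPM in library 1. The part of these transcripts in the Cd226 levels was not tested. In Tn, by contrast, Cd226 in library 3 (59.6 CPM) was level with the others.

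A list of pathway genes gave the surroundings of these values. Of the 4 receptors, Tigit and Pvrig were at least 2-fold higher in the 5 Teff and Tex clusters than in Tn (CPM plus 5 on both sides). Over all 5842 genes that reached 20 CPM on either side, 6.81% were higher and 0.753% lower by this measure, and the median log2 ratio was 0.27. Tigit and Pvrig reached this minimum only in the Teff and Tex clusters. For Pvrig, at 3.67 CPM in Tn, reaching it already meant a ratio past 2-fold. Cd226 and Cd96 were below 2-fold on this scale, with log2 ratios of 0.91 and 0.67. The ligand genes Pvr, Nectin1, Nectin2, Nectin3 and Nectin4 all stayed under 20 CPM in these T cells, with Pvr highest at 7.80 CPM in the Teff and Tex clusters.

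Among 10 signalling adaptors, Ptpn11 (the phosphatase SHP-2) at a log2 ratio of 1.26 and Fyn (a Src family kinase) at 1.14 were past 2-fold higher, and the other 8 were not, Inpp5d (the phosphatase SHIP-1, recruited by the TIGIT tail) at 0.59 among them. Of 7 inhibitory receptors, 6 were past 2-fold higher, with Pdcd1 (PD-1) at 4.64, Lag3 at 4.66 and Havcr2 (TIM-3) at 3.01, and Btla was at -0.34. Of 4 costimulatory receptors that reached the minimum, Tnfrsf9 (4-1BB) at 3.28 and Icos at 1.17 were past 2-fold higher, and Cd28 stood at 0.32. Among 11 transcription factors, Tox (2.99), Prdm1, Batf, Ikzf2 and Ikzf3 were past 2-fold higher and Tcf7 (TCF-1), a factor of stem-like T cells, was past 2-fold lower at -1.08. Prdm1, at 2.48 CPM in Tn, was likewise past 2-fold by reaching the minimum. The partners of CD226 at the synapse, Itgal and Itgb2 (the chains of LFA-1), were at 0.95 and 0.92. For each list gene given a ratio here, all 4 libraries had the same sign, though Fyn, Ikzf3 and Tcf7 were short of 2-fold in at least 1 library, with values nearest to 0 of 0.91, 0.93 and -0.69.

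Co-detection in single cells was counted for Tigit and Cd226. Both transcripts were found in 1626 of 5066 Teff and Tex cells, or 32.1% (30.8 to 33.4), with Tigit alone in 39.3%, Cd226 alone in 14.4% and neither in 14.2%. Over libraries 1 to 4 the share with both was 36.6%, 22.8%, 39.1% and 29.3%. It was 3.20% in Tn, 13.0% in Tcm, 22.5% in transitory Teff, 19.0% in GzmB+ Teff, 47.9% in TIGIT+ Teff, 40.8% in TIM-3+ Tex, 41.9% in GzmA+ Tex and 43.0% in cycling cells. In TIM-3+ Tex, where Tigit was found in nearly every cell, 12 of 1056 cells had Cd226 alone, and in Tcm Cd226 alone was found in 44.0% of the cells. Detection depends on depth, and with each cell thinned to 2500 UMIs both transcripts were expected in 9.97% of the Teff and Tex cells. By cluster the thinned share was 18.8% in TIGIT+ Teff, 11.8% in TIM-3+ Tex, 9.14% in GzmA+ Tex, 8.36% in cycling cells and 7.59% in transitory Teff, and it was 4.26% or below in GzmB+ Teff, Tcm and Tn. The gap between cycling cells and transitory Teff at full depth was thus small at equal depth, and TIGIT+ Teff was highest at both. With at least 2 UMIs of each gene required, 13.5% of the Teff and Tex cells had both.

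**Figure D2:**
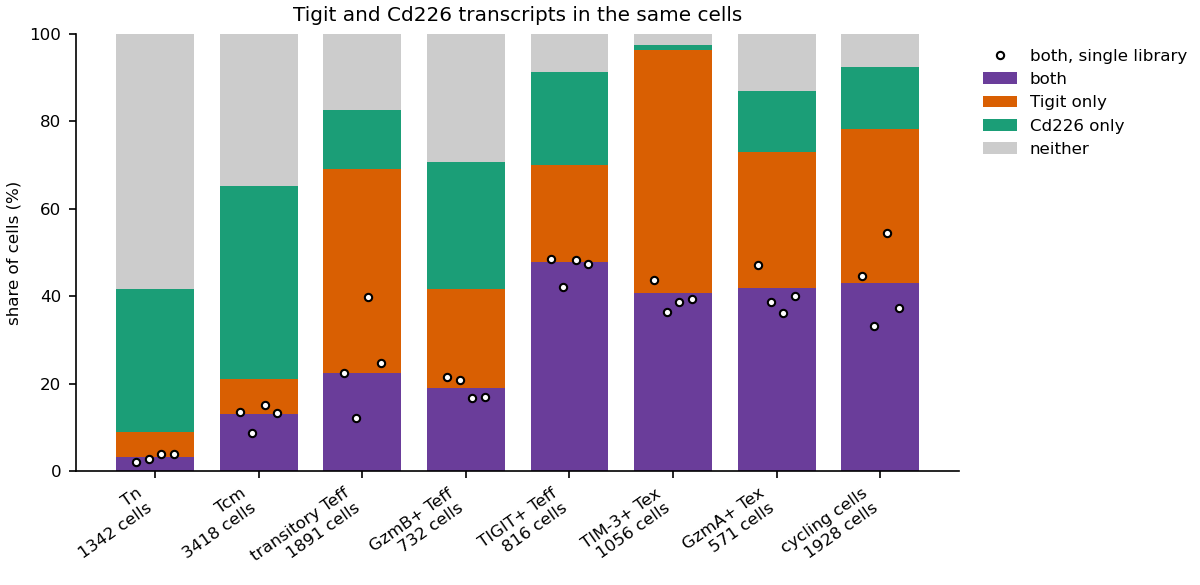
Share of cells (%) of each cluster with UMIs of Tigit and Cd226, Tigit alone, Cd226 alone or neither, over all libraries, with open points for the share with both in single libraries. Cd226 alone makes up 44.0% of Tcm and 1.14% of TIM-3+ Tex, and the share with both in transitory Teff runs from 12.3% to 39.9% over the libraries.

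Within clusters and libraries, the presence of 1 transcript was compared with that of the other by a Mantel-Haenszel odds ratio, where a log2 value of 0 means that both were found together as often as their separate shares give. Over all 8 clusters it was -0.11 (-0.24 to 0.03), and at 2500 UMIs per cell -0.38. In the 5 Teff and Tex clusters it was -0.26 (-0.46 to -0.07), and -0.43 when thinned. Libraries 1, 2 and 4 gave -0.41, -0.41 and -0.56 there, and library 3 gave 0.66. The interval of library 2 (-0.84 to 0.02) spans 0. Thinned, libraries 1 to 4 gave -0.50, -0.50, -0.051 and -0.56, so over the 5 clusters the positive value of library 3 was not seen at equal depth. In transitory Teff the value was -0.66 (-0.96 to -0.36) over all libraries. Libraries 1, 2 and 4 gave -0.87, -1.16 and -0.89 in that cluster. Library 3 gave 1.25 (0.40 to 2.11) there, and still 0.35 when thinned. Cycling cells had -0.50 (-0.84 to -0.17), whereas Tcm had 0.32 (0.08 to 0.57), which became -0.057 when thinned.

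Each of the other 5 pairs of receptors was found together more often than their separate shares give. In the Teff and Tex clusters the log2 odds ratio was 0.997 for Tigit with Pvrig, 0.66 for Tigit with Cd96, 0.60 for Cd226 with Cd96, 0.54 for Cd96 with Pvrig and 0.48 for Cd226 with Pvrig, all with intervals above 0. Deeper cells show more of every transcript, and thinned to 2500 UMIs these 5 values were 0.026 to 0.29. Tigit with Cd226 was the pair below 0 both before and after thinning. Of all Teff and Tex cells, 8.05% had none of the 4 transcripts and 6.57% had all 4.

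Cells with and without a TCR differed in depth and in this ratio. A TCR was deposited for 61.6% of the Teff and Tex cells, which had a median of 5442 UMIs, against 11196 UMIs in cells without one. In cells with a TCR the log2 odds ratio of Tigit and Cd226 was -0.89 (-1.14 to -0.65), and -0.67 when thinned. Cells without a TCR gave 0.47 (0.11 to 0.83), and -0.13 when thinned. In 985 cells whose TCR was seen once the value was -0.74 (-1.16 to -0.31). In 2134 cells of clones of at least 2 cells it was -0.85 (-1.18 to -0.51), but compared only within the same clone, cluster and library it was -0.084 (-0.59 to 0.43), an interval that spans 0, with 87 of 572 such strata informative. Whether the value within clones differs from that over clones was not tested.

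**Figure D3:**
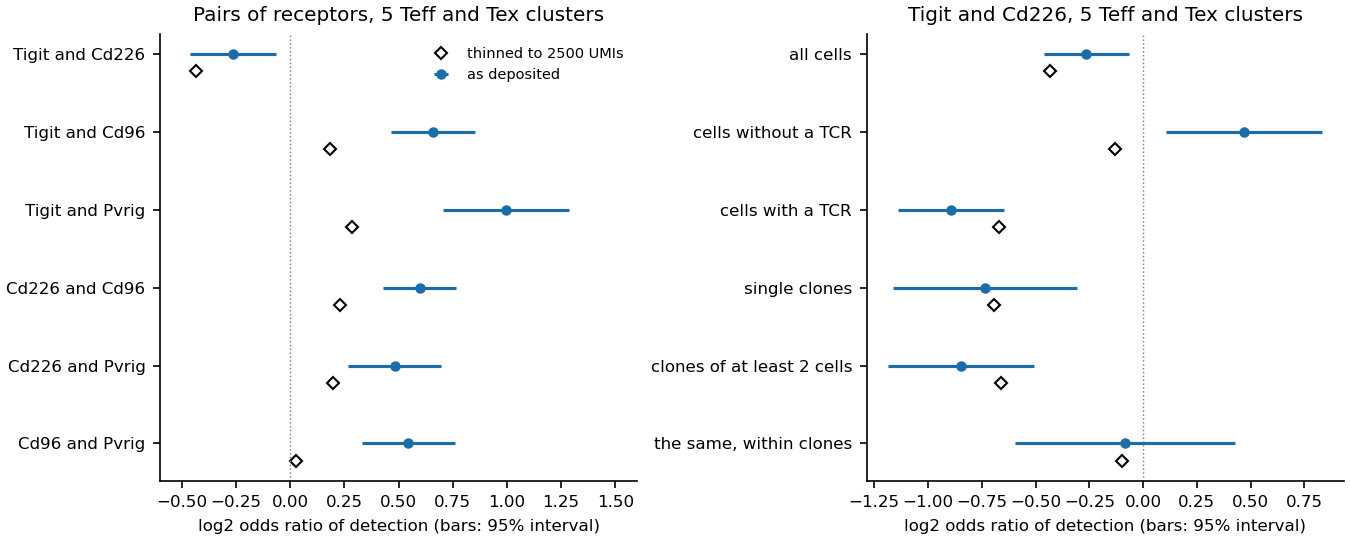
Mantel-Haenszel log2 odds ratios of detection within cluster and library in the 5 Teff and Tex clusters (dots with 95% intervals) and the same after thinning to 2500 UMIs (diamonds), for 6 receptor pairs on the left and for Tigit with Cd226 in subsets of cells on the right. Tigit with Cd226 is the pair left of 0, and within clones its value of -0.084 has an interval that spans 0.

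Tigit and Cd226 also differed in their relation to clone size. A clone was taken as all cells with the same TCR α and β genes and CDR3 nucleotide sequences over the 4 libraries. In the 5 Teff and Tex clusters, Tigit stood at 535, 444, 335 and 610.3 CPM (libraries 1 to 4) in cells of clones with at least 2 cells and at 128, 139.7, 107 and 129 CPM in clones seen once (single clones). The 2 sets did not overlap in their library values, and the log2 ratio was 2.03 (1.93 to 2.13), with 1.64 to 2.25 over libraries. Of the 2134 cells in clones of at least 2 cells, 1408 came from 32 clones of over 20 cells. The interval counts UMIs of the same clone as independent. The clusters were also mixed differently, with 536 expanded and 39 single cells in TIM-3+ Tex and 144 and 358 in GzmB+ Teff. For Cd226 the ratio was -0.013 (-0.14 to 0.11). It was -0.29, -0.26 and -0.19 in libraries 1, 2 and 4, with an interval that left out 0 in library 1 alone, and 0.75 in library 3, with an interval above 0. Cd96 had 0.33 (0.20 to 0.46) and Pvrig 0.94 (0.65 to 1.25).

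The relation of Tigit to clone size was also present inside single clusters. In transitory Teff, Tigit stood at 163 CPM in single clones, 336 CPM in clones of 2 to 5 cells, 405 CPM in clones of 6 to 20 cells and 498 CPM in larger ones, while Cd226 stood at 89.7, 118, 96.6 and 88.9 CPM. GzmB+ Teff had 34.7 CPM of Tigit in 358 single cells and 480.2 CPM in 70 cells of clones over 20 cells. The log2 ratio of expanded to single clones was 1.46 in transitory Teff, 3.29 in GzmB+ Teff, 0.95 in TIGIT+ Teff, 0.60 in TIM-3+ Tex, 1.72 in GzmA+ Tex and 1.45 in cycling cells. In TIGIT+ Teff the libraries ran from -1.45 to 1.92, with 8 and 9 single cells in libraries 2 and 4. In Tcm, where 2475 of 2700 cells with a TCR were single clones, the ratio was 0.29 (-0.11 to 0.66).

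**Figure D4:**
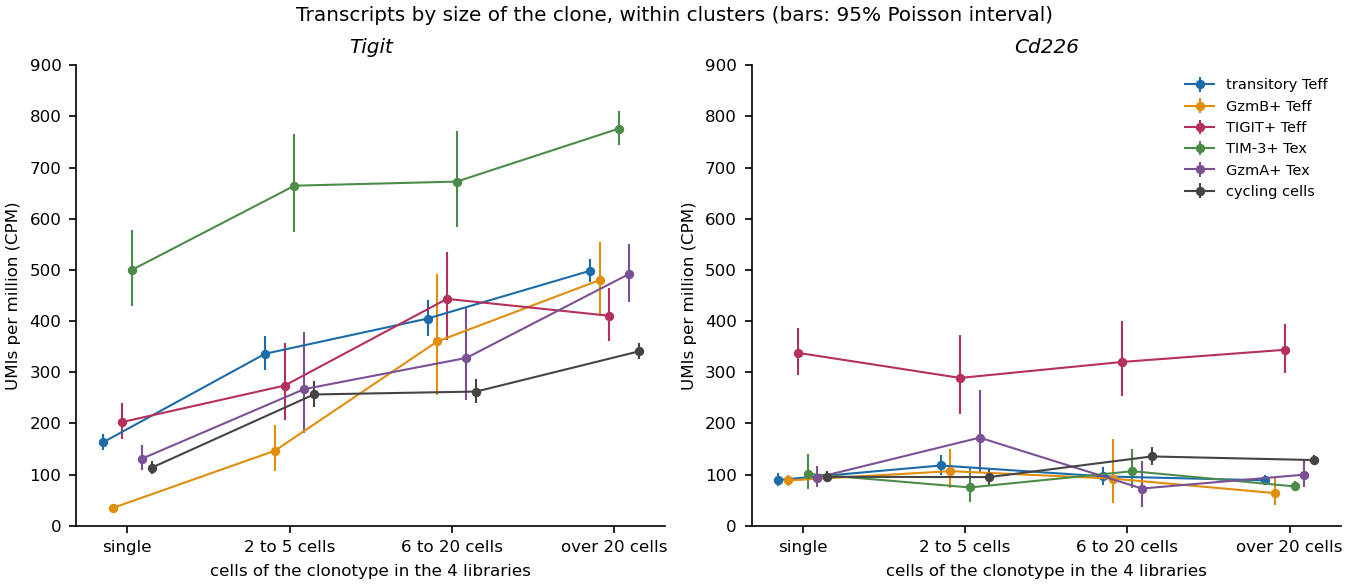
Tigit (left) and Cd226 (right) in CPM by the number of cells of the clone, for 6 clusters, with 95% Poisson intervals. In transitory Teff, Tigit goes from 163 CPM in single clones to 498 CPM in clones over 20 cells, while Cd226 there remains between 88.9 and 118 CPM.

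Individual clones of at least 30 cells spanned a wider range of Cd226 than the clusters did (58.5 to 251 CPM). There were 27, with 1766 cells in all, and 13 of them had cells in more than 1 library. Cd226 ranged from 0 to 501 CPM (median 69.3), Tigit from 96.3 to 1037 CPM (median 496), Cd96 from 40.1 to 159 CPM and Pvrig from 7.95 to 64.2 CPM. In 8 clones Cd226 was below 30 CPM and in 3 above 300 CPM. Across the 27 clones Pearson's r of log2(CPM + 5) was -0.70 for Tigit and Cd226 (Spearman's rho -0.71), 0.90 for Tigit and Pdcd1 and 0.89 for Tigit and Lag3. These correlations are descriptions, since clones share libraries and clusters and 12 of the 27 share a TCR β CDR3 with another.

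The TCR β CDR3 sequences of 6 clones at both ends of this range identify them, as deposited, 5′ to 3′. The lower case letters are the first and last codon of the deposited CDR3 sequence, and the loop between them is in capitals.
clone 4: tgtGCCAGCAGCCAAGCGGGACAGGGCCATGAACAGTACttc
clone 22: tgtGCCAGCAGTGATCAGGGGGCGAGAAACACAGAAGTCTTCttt
clone 3: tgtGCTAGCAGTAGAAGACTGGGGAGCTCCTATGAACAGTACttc
clone 7: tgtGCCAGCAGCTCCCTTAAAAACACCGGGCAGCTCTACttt
clone 8: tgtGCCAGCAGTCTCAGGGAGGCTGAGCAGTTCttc
clone 10: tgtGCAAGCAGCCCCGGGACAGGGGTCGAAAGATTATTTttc

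The first of these 6, clone 4 (TRAV13N-1 with TRBV5, 75 of 100 cells in library 4), had 1037 CPM of Tigit (945 to 1135) and 3 UMIs of Cd226, or 6.64 CPM (1.37 to 19.4). Clone 20, with 40 cells, had the same β sequence and the same α genes, and it gave 872 CPM of Tigit and 1 UMI of Cd226. Clone 22 (39 cells, all in library 4) had 533 CPM of Tigit in 36 cells and 0 UMIs of Cd226, which allows up to 11.2 CPM. Clone 3 (110 of 124 cells in library 2) had 517 CPM of Tigit and 14.0 CPM of Cd226. Its β sequence recurred in clone 14, 52 cells without an α chain, with 488 and 25.9 CPM.

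At the other end, clone 7 (90 of 91 cells in library 1) had 380.5 CPM of Cd226 (325 to 442) and 179 CPM of Tigit. Clones 8 and 10, with 75 and 66 cells, lay wholly in library 3 and had 385 and 501 CPM of Cd226 with 164 and 223 CPM of Tigit. In clone 10 both transcripts were found in 53.0% of the cells, against 2% in clone 4. Without clones 7, 8 and 10, chosen after their Cd226 values were seen, Cd226 in library 3 was 136 CPM (115 to 159) in transitory Teff, 349 CPM in TIGIT+ Teff and 189 CPM in cycling cells, all still above the other libraries treated alike (at most 98.7, 211 and 108 CPM). Among single clones library 3 was not the highest in transitory Teff (108 CPM against 121 CPM in library 1) or in cycling cells (93.8 against 108 CPM), whereas in TIGIT+ Teff it was (447 against 317 CPM). Among cells without a TCR library 3 was highest in all 3 clusters, with 169 CPM against 93.1 CPM in transitory Teff, 330.5 against 194 CPM in TIGIT+ Teff and 208 against 107 CPM in cycling cells.

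**Figure D5:**
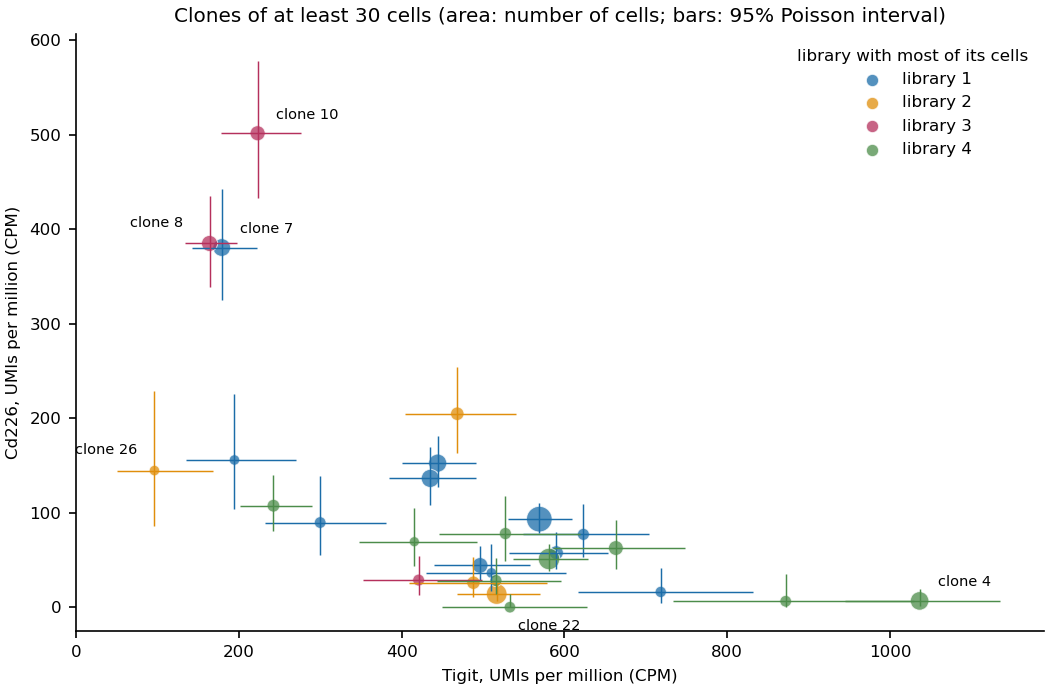
Tigit against Cd226 (CPM) in the 27 clones of at least 30 cells, with 95% Poisson intervals, area by number of cells and color by the library with most cells of the clone. Clones 7, 8 and 10 lie at 380.5 to 501 CPM of Cd226 and 164 to 223 CPM of Tigit, and clone 4 at 1037 CPM of Tigit and 6.64 CPM of Cd226.

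Levels of the same clone were also compared between clusters. Among the clones compared, clones 1, 5 and 12 have the same listed TCR β CDR3, as do clones 2, 11 and 18, clones 3 and 14, and clones 4 and 20. The numbers of clones given here are thus not numbers of separate receptors. With at least 10 cells in each cluster, clone 4 had 0 CPM of Cd226 in transitory Teff and 11.4 CPM in TIM-3+ Tex, while clone 10 had 384 CPM in transitory Teff, 489 CPM in cycling cells and 883 CPM in TIGIT+ Teff. Of 6 clones with enough cells in both TIGIT+ Teff and transitory Teff, Cd226 was higher in TIGIT+ Teff in 5 and Cd96 and Pvrig in 6. Tigit was lower in cycling cells than in transitory Teff in all 15 clones that could be compared, and it was higher in TIM-3+ Tex than in transitory Teff in 9 of 12, although the medians over these clones were close (638 and 648 CPM). Cd226 was likewise higher in TIM-3+ Tex in 9 of these 12 clones, with medians of 56.3 and 34.1 CPM, whereas over all cells its log2 ratio of TIM-3+ Tex to transitory Teff was -0.14 (-0.27 to -0.013).

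Genes whose levels most resembled those of each receptor were taken over 32 cluster and library profiles, among 5645 genes, by Pearson's r of log2(CPM + 5). For Tigit these were Tox (r = 0.980), Pdcd1 (0.978), Lag3 (0.976), Sh2d2a (0.970) and Ptms (0.966). For Cd226 they included Stim2 (0.912), Mbnl1 (0.894), Plekho2 (0.892) and Ahnak (0.890). Cd96 was closest to Cdk17 (0.918), Rgs3, Arhgef6, Baz2a and Os9, and Pvrig to Cd101 (0.873), Pear1, Pdgfb, Chn2 and Lat2. Among the members themselves r was 0.22 for Tigit and Cd226, 0.71 for Cd226 and Cd96, and 0.67 for Tigit and Pvrig. The profiles share libraries and depth, so these values are descriptions.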

How the data were processed

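BM CD8+ T cells from 4 pooled groups were profiled by 5′ single-cell RNA and TCR sequencing. Per the submitters' processing notes, the authors used Cell Ranger 7.00 and mm10. They downsampled reads to similar depth, filtered cells on UMIs, mitochondrial RNA and expression of Cd3e or Cd3g and Cd8a (not every cell kept has a Cd8a UMI), and clustered them with Monocle3. The deposited count table holds whole UMI counts per gene and cell. All 11754 cells' summed counts equal the deposited UMI totals, which run from 2502 to 24983 UMIs. The deposited mitochondrial fraction of each cell's UMIs, as the authors computed it, was used to describe quality. Samples were grouped by the labels, and no cell column was left unused (0). Cluster names and clonotypes were used as deposited. The treatment of a numbered library is not given in the sources used here, so no treatments were compared. How doublets were treated is not given in the sources used here, and no caller was run.

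From these counts, UMIs were summed per cluster and library and divided by all UMIs (CPM), with exact Poisson intervals, Clopper-Pearson intervals for shares, conditional binomial intervals for ratios and Mantel-Haenszel odds ratios with Robins-Breslow-Greenland intervals (95%). These cover counting error only. With 1 library per treatment there was no test and no p-value. Thinning to 2500 UMIs was computed as an expected value over all draws. A limit for 0 UMIs is 3 counts of the total. Folds over all genes used CPM plus 5 and a minimum of 20 CPM. Symbols came from GENCODE M21 (17534 of 17561 identifiers matched). The 4 members and the gene lists were chosen with earlier results of these data known. Named genes are the members, list genes and, for each member, the 5 most similar profiles, of which 1 is not reported here. Alternatives were equal weight of libraries, thinning, Leiden numbers, removal of cells with 2 or more macrophage or B and plasma cell UMIs, weights by clonotype, other thresholds and each library left out. The weights counted a clonotype as 1 cell per cluster and library and left cells without a TCR as they were. They were not applied to the ratio of expanded to single clones. Functions were tested on simulated data. The tools were matplotlib 3.10.9, pandas 2.3.3, numpy 2.4.6 and scipy 1.17.1, under Python 3.11.15.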

Additional observations from a re-analysis of the deposited data

How the results depend on the processing

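Of 91 alternative values for 9 results, 62 stayed within the 95% interval of the reported value (for the gene count, within 1.5 times), 29 moved outside it and 0 reversed a value whose interval left out 0. Under this rule the co-detection share, the odds ratio over all clusters and the gene count could not be counted as reversed. The causes were not tested. By Leiden number, the log2 ratio of Tigit to Tn was 4.17 and the change in Tigit to Cd226 was 3.30. Without cells holding macrophage or B and plasma cell UMIs (31.3% of Tn and 29.9% of Teff and Tex cells), Tigit was 5.20, Cd96 0.82, the change in Tigit to Cd226 4.13 and co-detection 27.8%. The Teff and Tex cells left out were deeper, with a median of 10786.5 UMIs against 5683.5 in those kept, and co-detection depends on depth. Weighting each clonotype as 1 cell per cluster and library gave Tigit 4.30, co-detection 35.2% and a log2 odds ratio of 0.061. Cells without a TCR kept full weight there, and alone they gave a log2 odds ratio of 0.41 over all clusters, and -0.15 when thinned. Single clones alone gave -0.17 (-0.39 to 0.04). With equal weight of libraries Cd226 was 1.10. Thinned to 2500 UMIs, Cd226 was 1.17, Cd96 0.82, co-detection 9.97% and the odds ratio -0.38. With at least 2 UMIs of each gene, co-detection was 13.5% and the odds ratio 0.081 (the reported -0.11 had an interval that spans 0).

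Alternatives chosen after seeing the data were the removal of TIGIT+ Teff, which gave Cd226 0.62, Cd96 0.57, co-detection 29.1%, the expanded to single clone ratio 2.15 and the change in Tigit to Cd226 3.93, and an odds ratio of -0.50 in cells with a TCR and -0.26 in the Teff and Tex clusters. Leaving out each library gave 4.47 to 4.63 for Tigit, 0.77 to 1.15 for Cd226, 0.60 to 0.78 for Cd96, 2.58 to 3.55 for Pvrig, 29.4% to 34.3% for co-detection, -0.22 to -0.03 for the odds ratio, 1.90 to 2.12 for expanded against single clones and 3.31 to 3.71 for the change in Tigit to Cd226. It also gave 17 to 21 pathway genes past 2-fold in either direction, against 13 to 24 over the other settings. With all libraries this count was 18 of 46 genes measured, with Tcf7 the 1 lower gene. The 46 include genes below the 20 CPM minimum. Over all 5842 genes that reached it, 6.81% were higher and 0.753% lower. Without library 4 the Pvrig ratio was highest, and without library 3 the Cd226 ratio was lowest.

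No paired analysis was possible because the labels give the treatment groups no shared replicates and no test was run. Each library holds all 8 clusters, and the ratios within single libraries stand beside the results. Depth limits the sparse members most, as Pvrig had 40 UMIs in Tn and 3 UMIs in TIM-3+ Tex of library 3. Cells without a TCR were deeper than those with one, and whether doublets are among them was not tested.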

Other observations

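The clones with most Cd226 also stood apart in other genes, chosen here after their values were seen. Clones 7, 8 and 10 had 137, 159 and 228 CPM of Pdcd1 and 125, 93.5 and 213 CPM of Lag3, against medians of 448 and 528 CPM over the 27 clones of at least 30 cells. Ly6c2, which encodes a surface antigen of memory and effector CD8+ T cells, was at 486, 1858 and 2087 CPM in them, against a median of 163 CPM. The 2 clones with the highest Ly6c2 levels, clone 26 at 3227 CPM and clone 25 at 2797 CPM, had 96.3 and 195 CPM of Tigit and 145 and 156 CPM of Cd226. Across the 27 clones Pearson's r of log2(CPM + 5) was -0.84 for Tigit and Ly6c2 and 0.61 for Cd226 and Ly6c2, as descriptions of clones that share libraries and clusters.

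Clone 4, with most Tigit, had 255 CPM of Havcr2 against a median of 45.2 CPM, and 22.1 CPM of Cd160, an inhibitory receptor with a median of 226 CPM over the 27 clones. Clone 20, which shares its TCR β sequence, had 213 CPM of Havcr2 and 31.4 CPM of Cd160. Both lay mostly in TIM-3+ Tex, with 63 of 100 and 25 of 40 cells.

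In cells of the deposited TCR table, 3 of the 27 clones (5, 12 and 18) carried 2 TCR β chains. Their Tigit levels were 444, 590.1 and 516 CPM and their Cd226 levels 152, 57.6 and 28.2 CPM, inside the range of the other clones. The β sequence listed first was that of clone 1 for clones 5 and 12, and that of clone 2 for clone 18. Clones 5, 12 and 18 had a median of 6954, 9973 and 6427 UMIs per cell, against 6228 in clone 1 and 6813 in clone 2. Whether they are separate from clones 1 and 2 was not tested.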
